A study of Homo sapiens and Mus musculus with 21 samples.

Results

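The genes described here are 9 human genes of the endoplasmic reticulum (ER) folding machinery: HSPA5, HSP90B1, CALR, CANX, PDIA3, PDIA4, PDIA6, P4HB and XBP1. They were chosen by name from a list and not by their values, though with earlier results of these data known. They are 9 of 58381 genes in the deposited input table. The study removed PCIF1, the methyltransferase that adds N6-methyl groups to a 2'-O-methylated adenosine at the capped first base of an mRNA (m6Am), from HEK293T cells, a transformed line of human embryonic kidney. Wild-type (WT) cells were compared with PCIF1 knockout (KO) cells, with no other treatment named for the libraries used here. There were 2 WT and 3 KO libraries each of input RNA and of ribosome-protected fragments, and 1 WT and 2 KO libraries of miCLIP, in which an antibody to N6-methyladenosine is crosslinked to RNA and methylated adenosines are read from base substitutions. SLAM-seq, which follows the loss of 4-thiouridine-labelled RNA, has 1 library for each genotype at 0, 6 and 12 h of chase, and 2 miCLIP libraries come from WT mouse embryonic fibroblasts. Whether the KO replicates are separate clones or cultures is not given in the labels. The p-values therefore stand against the spread of these particular libraries, part or all of which may be technical. The level of PCIF1 itself was not analysed here.

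The ER folds proteins that are secreted or set into membranes. HSPA5 (also known as BiP) is its HSP70 chaperone, HSP90B1 (GRP94) its HSP90 chaperone, CALR and CANX bind sugar chains on unfinished glycoproteins, and the PDI family makes and rearranges disulfide bonds. When unfolded proteins build up, sensors in the ER membrane start the unfolded protein response, in which ATF6, ATF4 and the spliced form of XBP1 raise transcription of these chaperones. ATF6 acts with NF-Y through the ER stress response element, whose letters are CCAAT, 9 bases of any kind, and CCACG.

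The promoters show what most of these genes share. RefSeq promoter windows of GRCh38.p14 (250 bases before to 50 after a transcript start) exist for 8 of the 9 genes in the table used, all but PDIA3. The complete element, searched on both strands, was present in 6 of those 8. The same search found it in 25 of 27167 genes with a promoter window (0.0916%). The element was first defined in promoters of this kind of gene, so the count is a description and no independent test. Its 2 parts alone were common, CCAAT in 39.7% and CCACG in 42.1% of all genes. The matches are printed 5′ to 3′ on the strand of the gene, with the 2 parts in capitals; in those of the reverse orientation the capitals read CGTGG and ATTGG.
HSPA5, chr9:125241391-125241409, minus strand, GRCh38.p14: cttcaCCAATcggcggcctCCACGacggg
HSP90B1, chr12:103930216-103930234, plus strand: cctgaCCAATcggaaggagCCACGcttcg
HSP90B1, chr12:103930321-103930339, plus strand, reverse orientation: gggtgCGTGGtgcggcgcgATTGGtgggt
CALR, chr19:12938384-12938402, plus strand, reverse orientation: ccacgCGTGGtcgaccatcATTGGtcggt
CANX, chr5:179698778-179698796, plus strand: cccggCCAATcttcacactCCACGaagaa
PDIA6, chr2:10812853-10812871, minus strand: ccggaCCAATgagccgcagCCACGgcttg
XBP1, chr22:28800603-28800621, minus strand: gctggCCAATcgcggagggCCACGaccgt
The coordinates are those of the element, and 5 flanking bases stand on each side. No complete match lay in the windows of PDIA4 or P4HB, which says only that these letters are not in those windows. Among 4 other lists of ER genes, the element was found in CRELD2 and ERO1B, both of the 27 co-chaperones and folding helpers with a promoter window, and in none of 14 unfolded protein response sensors and factors, 15 genes of ER-associated degradation or 19 of translocation and signal peptide cleavage.

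Read counts could be assigned to 7 of the 9 genes. The deposited count tables name genes by versioned Ensembl identifier, and the deposited tables that pair these with names do not list CANX or XBP1, so the RNA levels of these genes were not analysed here. The input libraries held 4511687 to 5960674 counts. The fragment table lists 785 genes, and the lowest count in it is 10 in either WT library and 3 to 8 in the KO libraries. All 7 genes with an identifier are in it. Over those genes the libraries held 17665 counts in WT replicate 1, 61816 in WT replicate 2 and 46193 to 124580 in KO. Every replicate pair differed by more than counting noise (chi-square per degree of freedom 2.70 to 19.9), so none was a copy of another. Of 9 markers of the HEK293 line, 3, 2 and 3 carried m6A sites in the lists of WT and of KO replicates 1 and 2. IRS4 and VIM did so in every list, GATA3 in WT alone and PAX2 in KO replicate 2 alone. The other markers of the line had no site. No site lay in any of 7 blood or 5 endothelial markers. The fibroblast marker FBN1 had 4, 0 and 2 sites in the WT list and the lists of KO replicates 1 and 2, and SDC1, a marker of secretory cells rich in ER, had 2, 3 and 2, with no site in the other 6 of those markers. The part of either in any result was not tested. A gene without a listed site may still be expressed, so missing sites do not show that a marker was absent. Of all these markers, input counts could be assigned to IRS4 and VIM alone. IRS4 had 3230 and 2676 counts and VIM 2174 and 1838 in WT replicates 1 and 2.

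None of the 7 genes passed the test in input RNA. In these bulk libraries, fewer cells that make an RNA and less of it per cell cannot be told apart. HSPA5 (ENSG00000044574.7), the HSP70 chaperone that also holds the stress sensors inactive, stood at 325 and 262 CPM (counts scaled to a common library size with TMM factors) in WT replicates 1 and 2 and at 274, 258 and 260 CPM in KO replicates 1 to 3. WT replicate 1 was the highest, and the other WT library lay among the KO libraries. The fitted log2 fold change of KO over WT was -0.15 ± 0.10 (SE), with an edgeR adjusted p of 0.646. HSP90B1 (ENSG00000166598.14), which folds a narrower set of clients such as integrins and Toll-like receptors, stood at 78.7 and 111 CPM in WT and at 92.9, 121 and 99.4 CPM in KO. Here WT replicate 1 was the lowest library, and the groups again overlapped. Its log2 fold change was 0.14 ± 0.16 (SE; edgeR adjusted p = 0.818). Both values depended on WT replicate 2. Without it, with 1 WT library assumed to vary like the KO libraries, HSPA5 came to -0.27 (edgeR adjusted p = 0.0499) and HSP90B1 to 0.44 (edgeR adjusted p = 0.0237), and genes called over the whole table went from 5 to 1912. Without WT replicate 1 the values were 0.01 for HSPA5 and -0.09 for HSP90B1.

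CALR (ENSG00000179218.13), the soluble lectin chaperone and calcium store of the ER, was at 567 and 621 CPM in WT and at 587, 534 and 661 CPM in KO. The KO libraries spanned the WT pair on both sides, and the means were 594 ± 38.3 (SD, n = 2) and 594 ± 63.9 CPM (SD, n = 3). Its log2 fold change was 0.00 ± 0.10 (SE; edgeR adjusted p = 0.999).

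None of the 4 disulfide isomerases passed the edgeR test. P4HB (ENSG00000185624.14), the founding PDI and a subunit of prolyl 4-hydroxylase, was at 560 and 662 CPM in WT and at 537, 553 and 601 CPM in KO, a log2 fold change of -0.12 ± 0.09 (SE). PDIA4 (ENSG00000155660.10, ERp72) was at 435 and 454 CPM in WT and at 419, 426 and 433 CPM in KO. This was the only gene of the 7 whose groups did not overlap, with every KO library below both WT libraries. Over all tested genes, 24.2% had groups without overlap, so 1 of 7 is not above the background. Its log2 fold change was -0.06 ± 0.08 (SE; edgeR adjusted p = 0.844). PDIA3 (ENSG00000167004.12, ERp57), which works with CALR and CANX on glycoproteins, was at 112 and 93.1 CPM in WT and at 106, 89.7 and 96.3 CPM in KO. PDIA6 (ENSG00000143870.12, P5), which also acts on the stress sensors, was at 307 and 252 CPM in WT and at 280, 246 and 266 CPM in KO. In both, WT replicate 1 was the highest and KO replicate 2 the lowest library. Their log2 fold changes were -0.08 ± 0.13 and -0.08 ± 0.11 (SE).

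**Figure D1:**
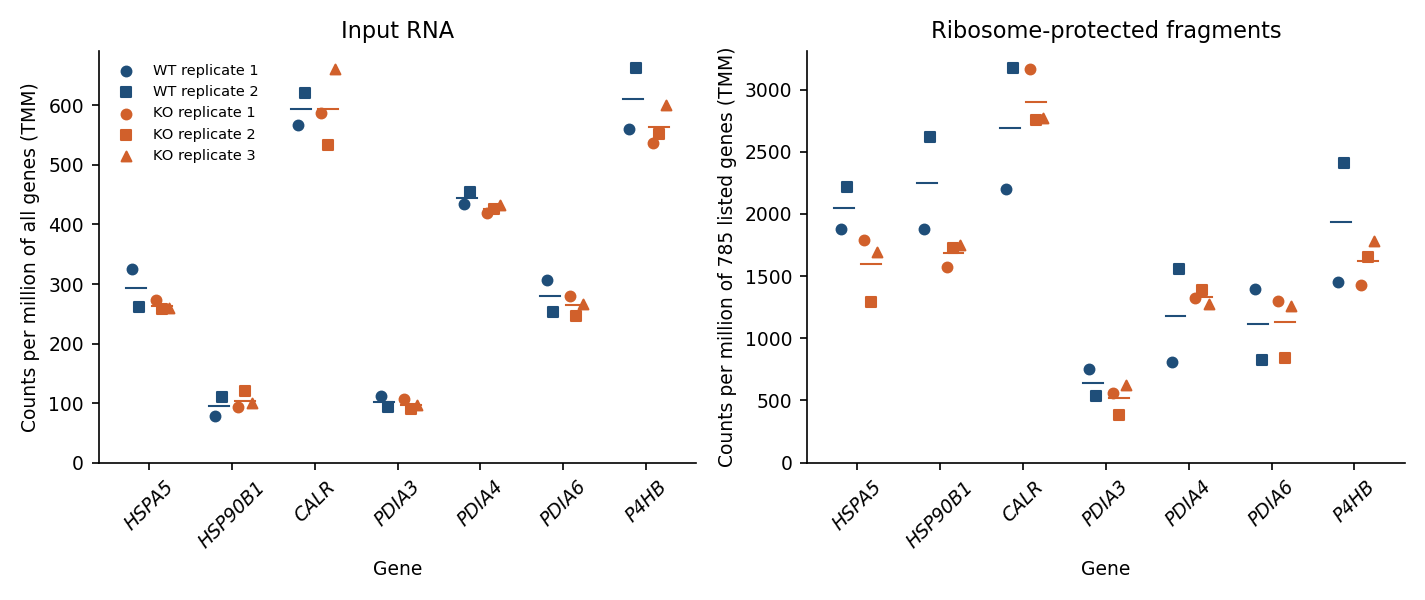
CPM (TMM-scaled, linear axes from 0) of 7 ER chaperone genes in each library of input RNA (left, over all genes) and ribosome-protected fragments (right, over the 785 listed genes); blue points are WT, orange points KO, symbols mark the replicate and short lines the group means. The groups overlap for all genes but PDIA4 in the input and for all but HSPA5 and HSP90B1 in the fragments. Over all tested genes, 24.2% in the input and 21% in the fragments had groups without overlap.

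Across the 7 genes, 5 log2 fold changes of input RNA were below 0 and 2 above, with a median of -0.08. Over all 14629 genes tested the median was -0.02, and 47.0% were above 0. edgeR called 0.0342% of all genes (5 genes, all lower in KO) and none of the 7, whose adjusted p ran from 0.646 to 0.999. At an unadjusted p under 0.05 edgeR gave 1360 genes and again none of the 7. DESeq2 called 15 genes and likewise none of them.

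The ribosome-protected fragments of 2 genes were lower in every KO library. HSPA5 had 1881 and 2217 CPM of the listed genes in WT and 1791, 1294 and 1698 CPM in KO, from 35 to 230 counts a library. HSP90B1 had 1881 and 2622 CPM in WT and 1573, 1725 and 1748 CPM in KO, from 35 to 202 counts. In both, the highest KO library lay below the lowest WT library. Groups without overlap occurred in 21% of the 785 genes, so 2 of 7 is near the background. The log2 fold changes were -0.36 ± 0.28 for HSPA5 and -0.44 ± 0.28 (SE) for HSP90B1, with edgeR adjusted p of 0.925 and 0.915. Neither passed the test. Without WT replicate 2 the values were -0.22 and -0.17.

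CALR fragments were at 2204 and 3172 CPM in WT and at 3161, 2756 and 2773 CPM in KO, so that all KO libraries lay between the WT libraries. P4HB fragments were at 1451 and 2412 CPM in WT and at 1425, 1653 and 1782 CPM in KO, with 27 counts behind the value of WT replicate 1. For PDIA4 the same 2 WT libraries stood at 806 and 1554 CPM, around KO values of 1324, 1390 and 1277 CPM. WT replicate 1, the shallowest library, was the lowest for CALR and PDIA4 and the second lowest for P4HB. PDIA3 was at 752 and 534 CPM in WT and at 561, 383 and 622 CPM in KO, on 14 to 72 counts. PDIA6 was at 1397 and 825 CPM in WT and at 1300, 839 and 1261 CPM in KO. In these 2 genes WT replicate 1 was the highest library. The log2 fold changes of the 5 genes ran from -0.29 to 0.12, and edgeR adjusted p was 0.932 or above. Of all 785 genes edgeR called 0% in the fragments (30 at an unadjusted p under 0.05, none of them among the 7), and DESeq2 also called 0.

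Translational efficiency, the change in fragments beyond that in input RNA, was lowest for HSP90B1. Its log2 change was -0.58 ± 0.29 (SE), with an unadjusted p of 0.0666 from edgeR's interaction test and an adjusted p of 0.608. Of all 785 genes, 11.2% had a lower value. The authors' deposited table gives -0.60 ± 0.34 (SE) for HSP90B1, with an adjusted p of 0.555. PDIA6 had the highest value of the 7, 0.34 ± 0.31 (SE; edgeR adjusted p = 0.805), against 0.29 in the authors' deposited table. Without WT replicate 2 it fell to 0.015, below PDIA4 at 0.79 and CALR at 0.38. HSPA5 had -0.17 ± 0.23 and P4HB -0.21 ± 0.25, while CALR had 0.10 ± 0.22, PDIA4 0.11 ± 0.25 and PDIA3 -0.07 ± 0.36 (SE). Thus 4 genes were below 0 and 3 above, with a median of -0.07 beside 0.01 over all 785 genes. edgeR's interaction test called 0% of all genes (56 at an unadjusted p under 0.05, none of the 7). DESeq2 called 1 gene, none of the 7. Of the genes with an adjusted p in the authors' deposited table, 0.262% (2 of 764) are under 0.05, again none of the 7.

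**Figure D2:**
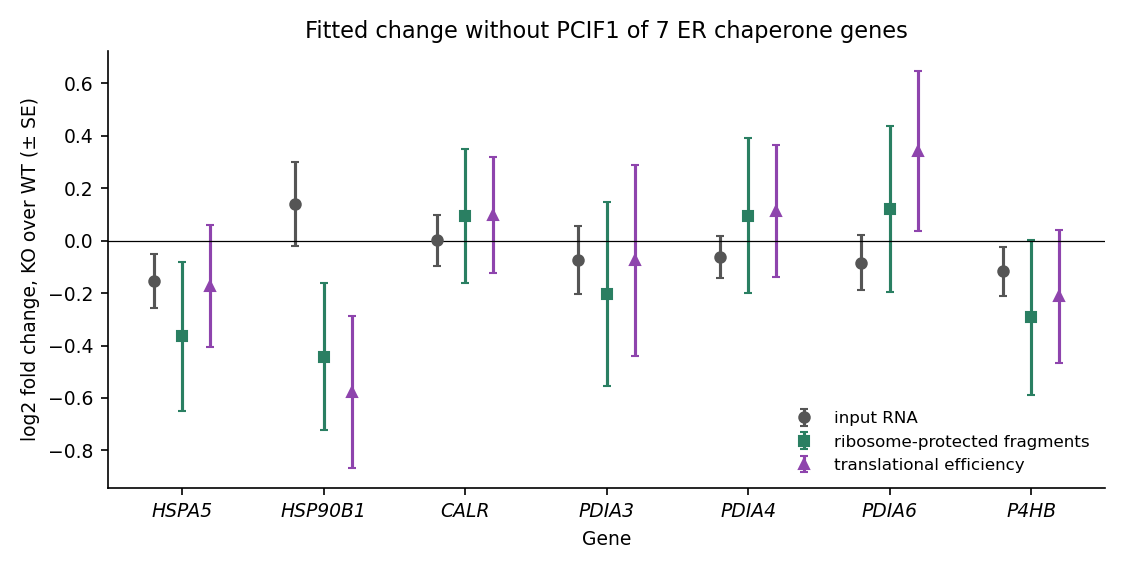
Fitted log2 fold change of KO over WT with its standard error for 7 ER chaperone genes in input RNA (grey circles), ribosome-protected fragments (green squares) and translational efficiency (purple triangles). HSP90B1 has the lowest efficiency value, -0.58 ± 0.29, and PDIA6 the highest, 0.34 ± 0.31; none passed the adjusted threshold.

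The genes differed more from each other in ribosome occupancy than KO differed from WT. Occupancy was taken as log2 of fragment CPM over input CPM, both over the listed genes, which cancels the length of a gene where reads cover it alike in both kinds of library. HSP90B1 had 2.28 and 2.26 in WT and 1.82, 1.57 and 1.91 in KO, above 89.8 to 94.3% of the 785 genes in every library. PDIA4 had -1.37 and -0.51 in WT and -0.59, -0.55 and -0.66 in KO. P4HB had -0.91 and -0.43 in WT and -0.84, -0.69 and -0.66 in KO. These 2 isomerases were below the median of all genes, which was -0.05 to -0.06, in all 5 libraries. HSPA5 was above it in all 5 libraries, at 0.07 to 0.79, and PDIA3 in 4 of 5, at -0.09 to 0.51. CALR ran from -0.34 to 0.16 and PDIA6 from -0.55 to 0.03. In the order of the levels only HSP90B1 stood clear of its neighbour; the ranges of HSPA5 and PDIA3, of PDIA3, CALR and PDIA6, of PDIA6 and P4HB and of P4HB and PDIA4 overlapped.

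**Figure D3:**
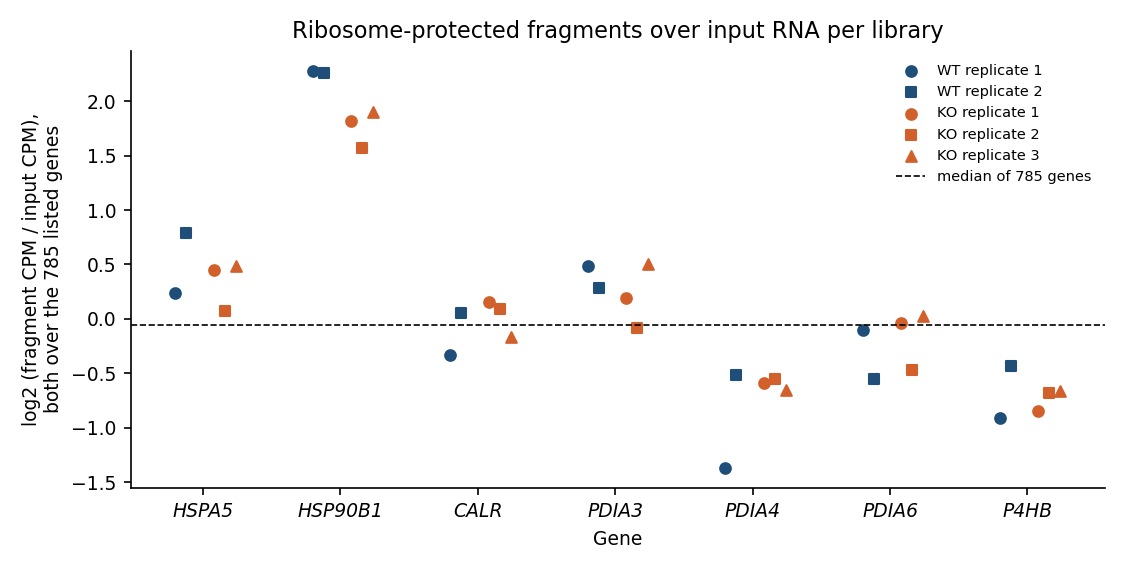
Log2 of fragment CPM over input CPM for 7 ER chaperone genes in each of 5 libraries, with the median of the 785 listed genes as a dashed line. HSP90B1 lies between 1.57 and 2.28, above every value of the other 6 genes, and PDIA4 and P4HB lie below the median in all 5 libraries.

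edgeR called none of the other genes of ER folding and transport that could be tested. Of 29 co-chaperones and folding helpers, 5 have an identifier in the tables, and 4 of them were above 0 in input RNA. TMX1, a membrane-bound disulfide isomerase, had a log2 fold change of 0.49 in input RNA and -1.08 ± 0.47 (SE) in translational efficiency, with edgeR adjusted p of 0.516 and 0.608. UGGT1, which re-glucosylates misfolded glycoproteins so that CALR and CANX bind them again, had -0.44 in input RNA (edgeR adjusted p = 0.509). GANAB and PRKCSH, the subunits of glucosidase II, had 0.00 and 0.08. Of 24 genes of translocation and signal peptide cleavage, 16 were tested in the input, 12 of them above 0, with a median of 0.10. SEC61A1, the channel subunit, had 0.00, and the oligosaccharyltransferase subunits RPN1, RPN2 and DDOST had 0.07, -0.11 and 0.02. In efficiency, 8 of 15 genes of this list were below 0 and 7 above, with a median of -0.05. The lowest were SEC63 at -1.09 ± 0.48 and DAD1 at -0.79 ± 0.32 (SE), each with an edgeR adjusted p of 0.608. Of 19 genes of ER-associated degradation, 3 were tested: VCP, the segregase, had -0.02, UBE2G2, a ubiquitin-conjugating enzyme, 0.01, and OS9, a lectin, -0.07. The only tested gene among 15 unfolded protein response sensors and factors was ATF4. It had 0.06 in input RNA, -1.15 in fragments and -1.20 ± 0.28 (SE) in efficiency (edgeR adjusted p = 0.457). The authors' deposited table gives -1.24 with an adjusted p of 0.0225 for ATF4. TMX1, SEC63, DAD1 and ATF4 had only 11, 14, 12 and 10 fragment counts in WT replicate 1. Among the 785 listed genes the lowest count is 10 in either WT library but 3 to 8 in KO. Genes with lower WT counts are thus absent, and what this does to such low efficiency values was not tested. The 3 other ER genes with the input profile nearest to the members' median profile over the 5 input libraries were OS9, VCP and DDOST, at root mean square differences of 0.019, 0.031 and 0.058 on the log2 scale. These are measures of likeness over 5 libraries among 21 other ER genes, and the median over 5396 genes was 0.121. The members themselves lay 0.033 to 0.231 from this profile, with HSPA5 (0.128) and HSP90B1 (0.231) beyond that median. The profile ran only from -0.091 to 0.068, so a gene near it is one that varied little between the libraries.

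None of the 9 genes is in the authors' deposited SLAM-seq table of KO over WT ratios. The ER genes of the other lists that it holds are DNAJC10 with a ratio of 0.625, OS9 with 1.31, SRP72 with 0.561 and UGGT1 with 0.879, each a single value without a replicate.

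Start class was then compared with the m6Am regions. The authors' deposited efficiency table classes the transcript start of HSPA5, PDIA4 and P4HB as m6Am and that of HSP90B1, CALR, PDIA3 and PDIA6 as A. Over the 765 genes of that table, 54.4% are m6Am and 26.3% A. In the authors' deposited list of 2360 m6Am regions on GRCh38, 2 of the 9 genes had a region within 50 nt of the start of the gene, HSPA5 and P4HB. The share of all genes with such a region was not computed, so this count has no background beside it. The region of HSPA5, chr9:125241351-125241400, ended 8 nt before the start and had the authors' score of 3.07, above 61.0% of all regions. It overlaps the ER stress response element printed for this gene. That of P4HB, chr17:81860501-81860600, covered the start and scored 2.92. PDIA4 had a region at chr7:149028601-149028700, 96 nt before the start of the gene, with a score of 2.91. The median score of the list is 2.90. A region with a score of 2.46 lay in CANX, chr5:179698901-179699000, which covers the start of a RefSeq transcript and lies 20245 nt inside the span of the gene. No region lay in or near the other 5 genes.

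The bases that these regions cover before a transcript start are printed with every A in capitals. The capitals mark the letter only, and which base is a methylated first base was not tested. These bases are from RefSeq windows of GRCh38.p14, and each run stops before the RefSeq start nearest to its 3' end. The parts of the P4HB and CANX regions from that start on are therefore not shown. The CANX run also holds another RefSeq start, at 179698929.
HSPA5, chr9:125241351-125241400, minus strand: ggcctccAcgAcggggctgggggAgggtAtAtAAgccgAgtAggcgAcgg
PDIA4, chr7:149028601-149028700, minus strand: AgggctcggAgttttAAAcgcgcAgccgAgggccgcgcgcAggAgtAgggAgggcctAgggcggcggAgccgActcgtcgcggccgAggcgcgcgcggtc
P4HB, chr17:81860536-81860600, minus strand: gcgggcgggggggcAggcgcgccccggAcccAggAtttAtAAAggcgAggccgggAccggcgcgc
CANX, chr5:179698901-179698966, plus strand: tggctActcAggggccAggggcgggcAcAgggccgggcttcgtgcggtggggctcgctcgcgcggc
These runs hold 10 A among 50 bases in HSPA5, 15 among 100 in PDIA4, 10 among 65 in P4HB and 5 among 66 in CANX. The first base of the RefSeq transcript is G, not A, in HSPA5, PDIA4 and P4HB, the 3 genes classed as m6Am. It is A in HSP90B1, classed as A, and G in CALR, also classed as A. PDIA6, likewise classed as A, has a RefSeq start at A (10832485) and another at G (10812785). PDIA3 has no RefSeq window here. CANX has 4 RefSeq starts, all at A. The middles of the authors' windows for HSPA5, PDIA4 and P4HB lay at 125241370, 149028660 and 81860586. The RefSeq starts are 125241343, 149028490 and 81860535, so the RefSeq base need not be the base that the authors classed. The authors' windows could not be read to the base for these genes. In 443 windows of the same length with class A or m6Am, strands pooled, the middle base was A in 39.1%. The base at the next coordinate was A in 36.3%. In 234 windows of 161 nt these shares were 8.12% and 67.1%.

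All 9 genes carried m6A sites in every HEK293T miCLIP list. A site is a position in the DRACH context (an A followed by C, which is the usual site of the METTL3 complex and not of PCIF1) with at least 2 substituted reads. P4HB had the most, with 16 sites in the WT list and 15 in both KO lists. HSPA5 had 11 in WT and 14 and 13 in KO, CANX had 12, 10 and 14, and CALR had 10, 10 and 12. PDIA4 had 9, 8 and 11, HSP90B1 had 7, 8 and 12, XBP1 had 7, 8 and 6, and PDIA6 had 7 in each list. PDIA3 had the fewest, with 3, 1 and 2. A gene with any site had a median of 3, so 8 of the 9 genes were above the median and PDIA3 at or below it. Site number also rises with reads at a gene, which was not removed here. The totals were 82 in WT and 81 and 92 in KO, all on the strand of the gene.

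Many positions recurred with and without PCIF1. Over the 3 lists the 9 genes had 141 positions, of which 45 (31.9%) were in all lists, against 12.7% of all 90876 positions of HEK293T. Of the 82 WT sites, 59.8% were listed in KO replicate 1 and 69.5% in KO replicate 2, against 37.4% and 42.4% of all WT sites. Depth enters this comparison, since the sites of these genes had more reads. Of 45 WT sites of these genes with 5 or more substituted reads, KO replicates 1 and 2 listed 84.4% and 86.7%. Over all genes the shares at this cut were 70.5% and 77.2%. With 10 or more substituted reads, the KO libraries listed 23 and 24 of 24 such sites in these genes, and 91.1% and 94.96% over all genes. How much of the difference depth makes up was not tested. P4HB had 11 positions and HSPA5 8 positions in all lists, CALR and XBP1 5, HSP90B1, CANX and PDIA4 4, PDIA6 3 and PDIA3 1. In all, 21 positions were listed in WT alone and 8 in both KO libraries but not in WT.

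Pooled over the 9 genes, within 2000 nt of the gene end lay 50% of member sites in WT and 54.3% and 51.1% in KO, against 34.8 to 35.6% for all coding genes. XBP1 had 9 of its 10 positions there, PDIA6 12 of 14, CALR 9 of 17 and PDIA4 9 of 18. In the other 5 genes it was the smaller part, with 7 of 17 in HSPA5, 11 of 23 in P4HB, 5 of 17 in HSP90B1, 1 of 3 in PDIA3 and 3 of 22 in CANX. A window of 2000 nt takes up much of a short gene such as CALR (5881 nt), XBP1 (6010 nt) or HSPA5 (6491 nt), which was not allowed for. In CANX the 4 shared positions lay 2801 to 2907 nt from the end. Of all 9 genes, only HSPA5 and P4HB had a position within 500 nt of the gene start. By motif, 31.7% of WT sites had the core GGAC and 19.5% TGAC, against 34.0% and 11.3% of all WT sites. In KO the TGAC share was 14.8% and 16.3%, against 10.8% and 10.9%. The core AGAC made up 9.76% of WT sites against 19.9% of all WT sites, and 17.3% and 15.2% in KO against 20.4% and 20.2%.

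**Figure D4:**
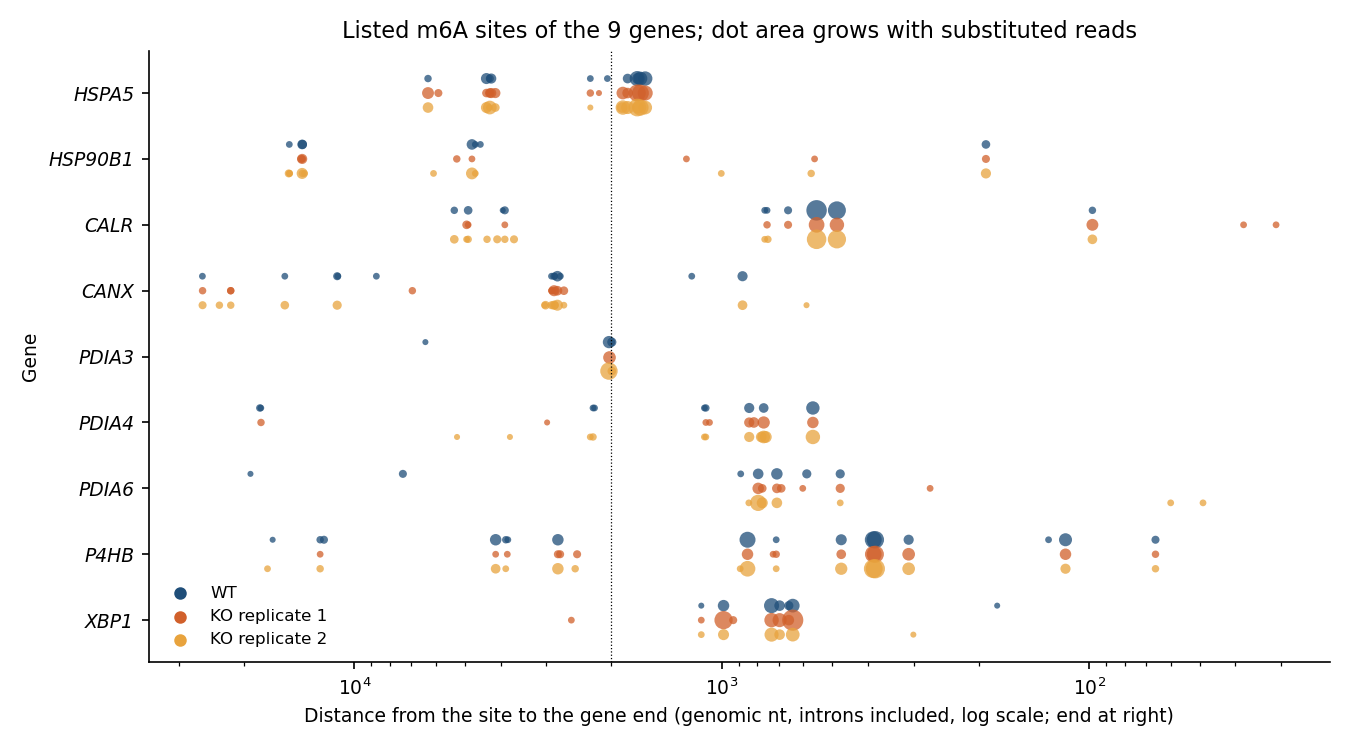
Each dot is a listed m6A site of the 9 genes, placed by its genomic distance to the gene end (log scale, end at right, dotted line at 2000 nt) and coloured by library (blue WT, orange KO replicate 1, yellow KO replicate 2); dot area grows with the number of substituted reads. The largest dots recur at the same place in the 3 libraries, and those of HSPA5, CALR, PDIA4, PDIA6, P4HB and XBP1 lie right of the dotted line.

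In the next sentences each triple of values gives substituted reads of all reads in WT, KO replicate 1 and KO replicate 2. In CALR the strongest site was a GGACT at chr19:12943937, 552 nt from the gene end, with 42 of 632 reads substituted in WT and 24 of 490 and 38 of 833 in KO. A GAACT nearer the end, at 12944003, had 32 of 459, 20 of 440 and 33 of 622. P4HB carried a pair of neighbouring sites, a GGACA at chr17:81843548 with 30 of 562, 29 of 514 and 37 of 647, and a GGACT at 81843553 with 28 of 499, 27 of 435 and 35 of 587. In HSPA5 the strongest site by substituted reads in each library, a GGACT at chr9:125236552, had 22 of 519, 29 of 756 and 31 of 810. A TGACA of HSPA5 at 125239223 had fewer reads and a higher share, 11 of 62, 6 of 45 and 11 of 59. The only shared site of PDIA3, a GGACT at chr15:43771250, had 14 of 162, 15 of 167 and 30 of 217. In PDIA4 a TGACT at chr7:149003616 had 17 of 277, 12 of 269 and 20 of 359. An AAACT of the same gene at 149003820 had 8 of 249, 14 of 294 and 15 of 350. In PDIA6 a GGACA at chr2:10784187 had 10 of 149, 12 of 160 and 26 of 254, and a GAACT at 10784099 had 12 of 393, 8 of 453 and 10 of 517. In HSP90B1 a GGACA at chr12:103934056 had 8 of 168, 9 of 157 and 11 of 219, and in CANX a GGACC at chr5:179728840 had 10 of 276, 8 of 347 and 11 of 406. The sites named here are among the 45 positions in all 3 lists, so their presence in KO is part of how they were chosen.

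Summed over the shared positions of a gene, the exact 95% intervals of the substituted share overlapped between WT and both KO libraries for each of the 9 genes. Overlap of intervals does not show that the shares are alike. Over all 45 shared positions it was 5.19% in WT and 4.95% and 4.68% in KO replicates 1 and 2. Over all their listed sites it was 4.94%, 4.79% and 4.43%, beside 7.29%, 7.17% and 6.69% over all listed HEK293T sites, so the KO values were also the lower ones over the whole lists. With 1 WT miCLIP library, no test of genotype was run. P4HB had 5.24% (exact 95% interval 4.47 to 6.11) in WT and 5.35% and 5.08% in KO. HSPA5 had 4.18% (3.38 to 5.11) in WT and 4.53% and 4.08% in KO, and PDIA4 had 4.03% (2.87 to 5.49), 4.14% and 3.93%. CALR was higher in WT, with 6.29% (5.08 to 7.68) beside 5.41% (4.18 to 6.87) and 4.39% (3.53 to 5.39), and the intervals overlap. HSP90B1 had 6.11%, 4.40% and 5.49%, PDIA6 4.67%, 3.74% and 4.43%, and CANX 3.16%, 3.28% and 3.44%. PDIA3 had 8.64% and 8.98% in WT and KO replicate 1 and 13.8% (9.53 to 19.1) in KO replicate 2, all from 1 position.

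XBP1, the transcription factor of the response, stood apart from the chaperones by its ratio of reads to WT in KO replicate 1, but not in KO replicate 2. Its 5 shared positions had 809 reads in WT, 1984 in KO replicate 1 and 1121 in KO replicate 2. The ratio to WT was 2.45 in KO replicate 1, above 99.8% of the 1241 genes with at least 3 shared positions, whose 5th to 95th percentiles ran from 0.66 to 1.5. In KO replicate 2 it was 1.39, above 74.2% of genes, with a median of 1.27. The other 7 genes with at least 3 shared positions had lower ratios in KO replicate 1, from 0.77 to 1.25; those in KO replicate 2 ran from 1.10 to 1.49. The 2 KO libraries thus differed from each other, and none of the other 7 genes had so high a ratio in KO replicate 1. All 5 positions had more reads in KO replicate 1 than in WT. The GAACT at chr22:28795201 had 18 of 211 reads substituted in WT, 45 of 524 in KO replicate 1 and 18 of 285 in KO replicate 2, and the TGACT at 28795292 had 22 of 219, 20 of 479 and 19 of 290. The substituted share over the 5 positions was 7.91% (6.15 to 9.99) in WT, and 6.05% (5.04 to 7.19) and 5.44% (4.19 to 6.94) in the 2 KO libraries, with overlapping intervals. Reads at m6A sites follow the RNA level and the antibody's yield together, and with no count for XBP1 in the input these cannot be told apart.

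**Figure D5:**
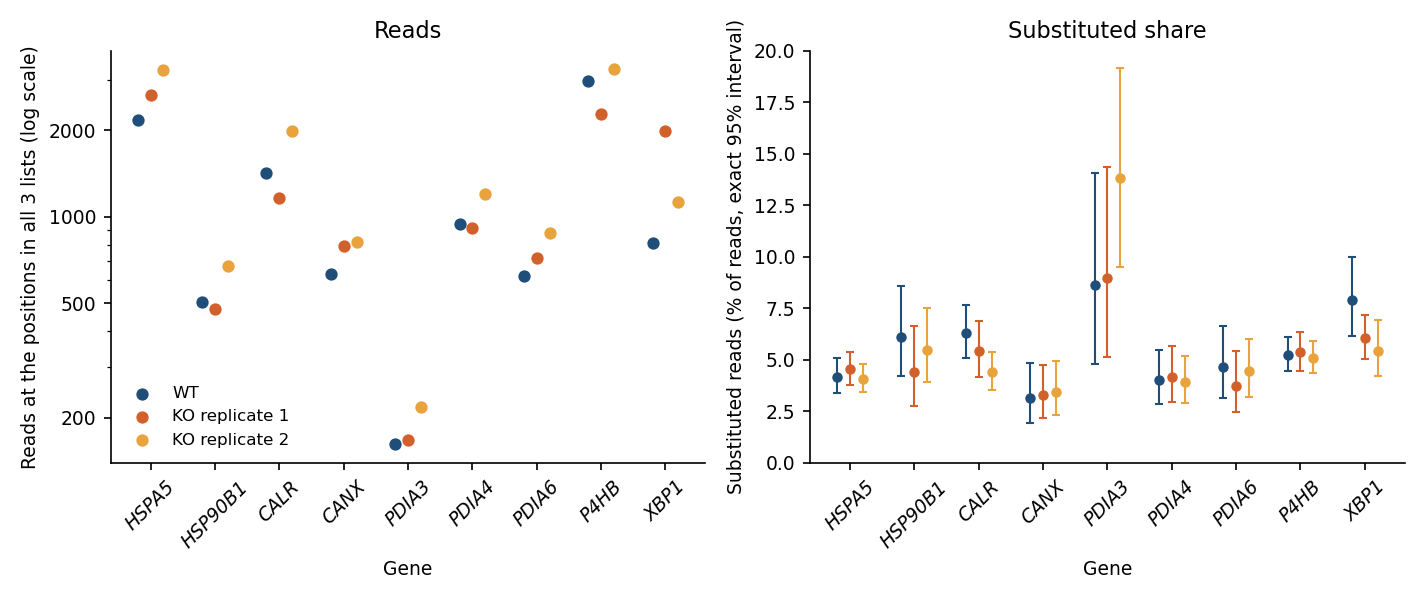
Reads (left, log scale) and share of substituted reads with exact 95% intervals (right) summed over the positions of each gene that are in all 3 HEK293T lists, for WT (blue), KO replicate 1 (orange) and KO replicate 2 (yellow). XBP1 has 809 reads in WT, 1984 and 1121 in the KO libraries. The intervals of its summed shares overlap, which does not show that the shares are alike.

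Sites in mouse fibroblasts could not be assigned to the mouse genes, as no mouse gene table was used, and they are not analysed here.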

How the data were processed

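The 9 genes, the other gene lists and the tests were chosen with earlier results of these data known. Per the submitters' processing notes, the tools were BWA 0.7.17, STAR, deepTools and bedtools and the builds GRCh38, hg38 and mm10, with no role stated for any; which one aligned or counted the reads is not given in the sources used here. RNA was selected by its poly(A) tail and input libraries came from a directional kit, per the labels' protocols.

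The deposited tables of input and fragments give raw counts of reads for each gene, and all columns matched a library (0 left over). Per the file headers, the authors' efficiency table holds log2 fold changes and their errors, a mean signal, a test score and p-values under DESeq2's column names. The deposited SLAM-seq table holds a KO over WT ratio of unstated origin. The deposited m6A lists hold counts of substituted reads and reads per position, called per library, and the authors' m6Am list holds a score per region of unstated scale.

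Counts were tested with edgeR 4.0.16 (R 4.3.3): TMM, a robust quasi-likelihood test of the genotype, filterByExpr on the input, the whole fragment table, and an interaction of genotype and library kind for efficiency. P-values are two-sided, Benjamini-Hochberg adjusted over all genes, threshold 0.05. The fits were also run on simulated counts with planted changes larger than those fitted for the 7 genes, and the fitted sizes were checked. This does not show the power for changes as small as those reported here. Alternatives were DESeq2 1.42.0, other filters, each library left out and a replicate block. Shares carry exact Clopper-Pearson 95% intervals, which cover counting error alone, since no molecular identifiers show which reads are separate molecules. Sites were assigned by gene span (GRCh38 RefSeq table), distances are genomic. Identifiers were named only through the authors' class tables. Lists were read with scipy 1.17.1, numpy 2.4.6 and pandas 2.3.3 in Python 3.11.15; matplotlib 3.10.9 drew the plots. Named genes were all 9 genes, any other listed ER gene past the threshold (none was, by edgeR), the 3 of each list with the highest WT input level and the 3 nearest by profile. TMX1, SEC63, DAD1 and the SLAM-seq genes were added after their values were seen.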

Additional observations from a re-analysis of the deposited data

How the results depend on the processing

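Genes called in the input (5) rose to 15 with DESeq2 and to 152 with no filter on low counts, and were 3 with the replicate block; leaving out each library in turn gave 2 to 1912, the highest without WT replicate 2. Fragments (0 called) gave 6 with the replicate block and 0 to 3 with a library left out. Efficiency (0 called) gave 1 with DESeq2 and 0 to 14 with a library left out, the highest without WT replicate 2. The cause was not tested. The labels do not say that replicate numbers pair libraries.

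None of the 7 genes with counts was called in any alternative except HSPA5 and HSP90B1 in the input without WT replicate 2. With a library left out, the log2 fold change of input RNA ran from -0.27 to 0.011 in HSPA5, -0.088 to 0.44 in HSP90B1, -0.065 to 0.097 in CALR, -0.17 to 0.067 in PDIA3, -0.19 to 0.065 in PDIA6 and -0.23 to 0.039 in P4HB. In fragments it ran from -0.46 to -0.22 in HSPA5, -0.64 to -0.17 in HSP90B1, -0.13 to 0.40 in CALR, -0.23 to 0.72 in PDIA4, -0.28 to 0.48 in PDIA6 and -0.58 to 0.15 in P4HB. In efficiency it ran from -0.40 to 0.15 in HSPA5, -0.014 to 0.38 in CALR, -0.10 to 0.79 in PDIA4 -0.33 to 0.16 in P4HB and 0.015 to 0.49 in PDIA6. The turns of sign among these came without WT replicate 1 or WT replicate 2, and for CALR in the input also without KO replicate 3. CALR in the input was -0.0054 with no filter on low counts and -0.083 with the replicate block, and PDIA6 in fragments was -0.041 with the replicate block. The efficiency of HSP90B1 ran from -0.64 to -0.47 over its 8 alternatives, with adjusted p from 0.475 to 0.933.

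With at least 5 substituted reads the 9 genes had 45 sites in WT and 47 and 52 in KO. Counting any m6Am region in or near the span gave 4 genes, not 2; within 50 nt of any RefSeq start, a rule added after seeing the data, gave 3. Levels per length were not run, since no transcript lengths were at hand. The shallow fragments of WT replicate 1 and the use of 2 WT libraries limit all fits.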
